A study of Mus musculus with 9 samples.

Results

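The genes described here are 37 transcripts of sugar metabolism, followed from the uptake of glucose to the export of lactate and into the glycogen branch, out of 29069 genes measured by total RNA-Seq in mouse embryonic stem cells (mESC). They were picked by gene name, and all 37 were among the 18156 genes whose mean normalised count exceeded 5. The list was drawn up with values of these same samples in view, so the differences between media given below describe the members, and the p-values say only how large a difference was against the spread of replicates. The cells were of D3, an established line that grows here without a feeder layer, and each medium was applied for 24 h to 3 replicates. Ground-state medium (GS) was serum-free N2B27 with 1 μM PD0325901, a MEK inhibitor, 3 μM CHIR99021, a GSK-3 inhibitor, and LIF at 20 ng/mL. Differentiation medium (DM) was DMEM with 10% FBS, glutamine at 4 mmol/L, glucose at 1 g/L and 2-mercaptoethanol at 0.1 mmol/L, and contained neither the inhibitors nor LIF. NO medium was DM plus 250 μM DETA/NO, which releases nitric oxide. The labels give the glucose of DM and NO but not that of GS. DM vs. GS and NO vs. GS are also comparisons of basal media, serum, the inhibitors and LIF. All RNA came from 1 cell line, each sample from a dish of its own. The paper states in general that its values come from 3 or more independent experiments unless stated otherwise. Neither the labels nor the RNA-Seq methods say whether the 3 dishes of a medium were separate experiments. The p-values therefore measure only the spread between these samples, which may be technical.

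Glycolysis splits glucose into pyruvate in the cytosol. Lactate dehydrogenase turns pyruvate into lactate, and monocarboxylate transporters carry lactate out of the cell. Pyruvate dehydrogenase kinases hold back pyruvate dehydrogenase, which acts on pyruvate inside mitochondria. Many steps can be run by several isozymes from separate genes, and several of these genes are textbook targets of the hypoxia-inducible factor HIF-1, which binds a short core motif and whose breakdown depends on oxygen. Pluripotent cells are known for a high rate of glycolysis.

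That core motif, ACGTG or GCGTG read on either strand, was searched in promoter windows of RefSeq (GRCm38.p6) that ran from 250 bases before to 50 bases after each gene start. Windows were found for 36 of the 37 members, *Slc2a3* having none, and 30 of the 36 members (83.33%) held the motif at least once. Over all 27025 genes with a window the share was 46.73%, without matching for base composition or for the number of windows of a gene. A match in these letters is a description of sequence and not a binding site. The stretches below are shown because they come from members that the following paragraphs turn on, 7 that were lower in NO than in DM (the first 7), 1 that was higher, 1 partner isozyme that was not called (*Ldhb*) and 1 that was higher in DM than in GS. Capitals mark the motif, CACGT and CACGC being its form on the opposite strand, and positions are counted from the gene start in RefSeq.
*Slc16a3*, chr11:120949034-120949063, plus strand, from 33 to 4 bases before the start: gcggtgACGTGcgcgggggACGTGccgcgc
*Ldha*, chr7:46845750-46845779, plus strand, from 54 to 25 bases before the start: agcctaCACGTGggttcccgCACGTccgct
*Pgk1*, chrX:106186944-106186973, plus strand, from 156 to 127 bases before the start: tgcaggACGTGacaaatggaagtagCACGT
*Hk2*, chr6:82774483-82774512, minus strand, from 58 to 29 bases before the start: cacatcCACGTcactgtccggggcggccca
*Pfkl*, chr10:78009883-78009912, minus strand, from 105 to 76 bases before the start: agactgGCGTGcgctccgcctttcttagcg
*Aldoa*, chr7:126799357-126799386, minus strand, from 132 to 103 bases before 1 of its starts: tcgagtCACGTcctagcggggcggaggagg
*Pdk1*, chr2:71873140-71873169, plus strand, from 84 to 55 bases before the start: acatggGCGTGtctttaaccaggggcggtg
*Pfkfb4*, chr9:108991779-108991808, plus strand, from 123 to 94 bases before the start: gatgggGCGTGcttagtccaaaagaagcta
*Ldhb*, chr6:142508060-142508089, minus strand, from 132 to 103 bases before the start: gagagcGCGTGcacactccagccttgtcct
*Eno3*, chr11:70657040-70657069, plus strand, from 136 to 107 bases before the start: ggggtaCACGCcccagggccccaggtcagg
In the GENCODE M21 annotation the *Hk2*, *Pgk1*, *Pdk1*, *Ldhb* and *Eno3* stretches lay outside every transcript, those of *Ldha*, *Pfkl* and *Aldoa* in introns of longer transcripts, and those of *Slc16a3* and *Pfkfb4* in an exon of an alternative transcript. Of the members called lower in NO vs. DM, 13 of 14 held the motif, *Tpi1* being the exception, against 17 of the 22 other members with a window. Most members not called lower held the motif as well, and it was present in both lactate dehydrogenases. Whether the motif had a part in the differences between media was not tested.

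The depth of the 9 libraries, estimated from the spacing of low values, ranged from 14302054 to 27061091 assigned reads, and 1 read was worth between 0.701 and 1.323 normalised counts. NO replicate 2 stood apart from the other NO replicates, at 131.2 on the first principal component against 25.89 and 67.12. DM replicate 3 stood apart on the second component, at 72.63 against 27.8 and 24.33 for DM replicates 1 and 2. The 10 markers of embryonic stem cells summed to between 89882 and 91645 normalised counts in GS, between 97939 and 108993 in DM, and to 89418, 59770 and 89879 in NO replicates 1, 2 and 3, with no marker at 0. The cells in NO replicate 2 also had the highest sum of 10 trophoblast markers, 3027 against 1148 to 1883 in the other libraries, the highest sum of 10 primitive endoderm markers, 15105 against 8098 to 13294, and the highest sum of 10 fibroblast markers, 1038 against 498 to 770. *Afp* was at 0 in all GS and DM libraries and *Postn* in all DM libraries. In NO vs. DM, 4 of 10 trophoblast markers tested, 1 of 7 primitive endoderm markers and 1 of 6 fibroblast markers were higher. Of 10 stem cell markers 2, *Lin28a* and *Utf1*, were lower. Of all genes, 6.78% were higher and 1.77% lower. The part of these markers in the results below was not tested. Counts of members, and of the 6 other pathway lists in sum, are also given without NO replicate 2. Those of members in NO vs. DM are given without DM replicate 3 as well. In bulk RNA, fewer cells of a type and less RNA per cell cannot be told apart.

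Members were called changed at a Benjamini-Hochberg adjusted p-value under 0.05 over all 18156 genes and at least a 2-fold change in limma, with fold changes on the log2(normalised count + 1) scale. In DM vs. GS, 1 of 37 members was higher and 0 lower in limma, where 2.94% of all genes were higher and 1.27% lower. At an unadjusted p-value under 0.05, 6 members were higher and 3 lower in that comparison, against 11.2% and 8.65% of all genes. In NO vs. DM, 14 members were lower and 2 higher, where 1.77% of all genes were lower and 6.78% higher. In NO vs. GS, 15 members were lower and 2 higher, where 1.64% of all genes were lower and 10.1% higher. With no minimum fold, 19 members were lower and 2 higher in NO vs. DM, against 5.24% and 9.01% of all genes. Since these contrasts were known when the list was made, nothing is read from the members' shares. NO vs. DM and NO vs. GS share the NO samples, and NO vs. DM and DM vs. GS share the DM samples, so the comparisons are not independent of each other.

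The median log2 fold change of the 37 members was −0.86 in NO vs. DM, −0.72 in NO vs. GS and 0.20 in DM vs. GS, whereas the medians of all genes tested were 0.001, −0.02 and −7e-04. In NO vs. DM, 31 members had a fold change below 0 and 6 above, where 9056 of all 18156 genes were below and 9092 above. For 24 members the 3 NO values all lay below the 3 DM values, and for 4 all above. Among all genes such a separation was found for 15.3% in the lower and 18.1% in the higher direction. Without NO replicate 2, 15 members were lower and 0 higher in NO vs. DM, and 13 lower and 1 higher in NO vs. GS. Without DM replicate 3, 14 members were lower and 1 higher in NO vs. DM. The share of all genes in these fits is not given, so nothing is read from these counts.

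**Figure D1:**
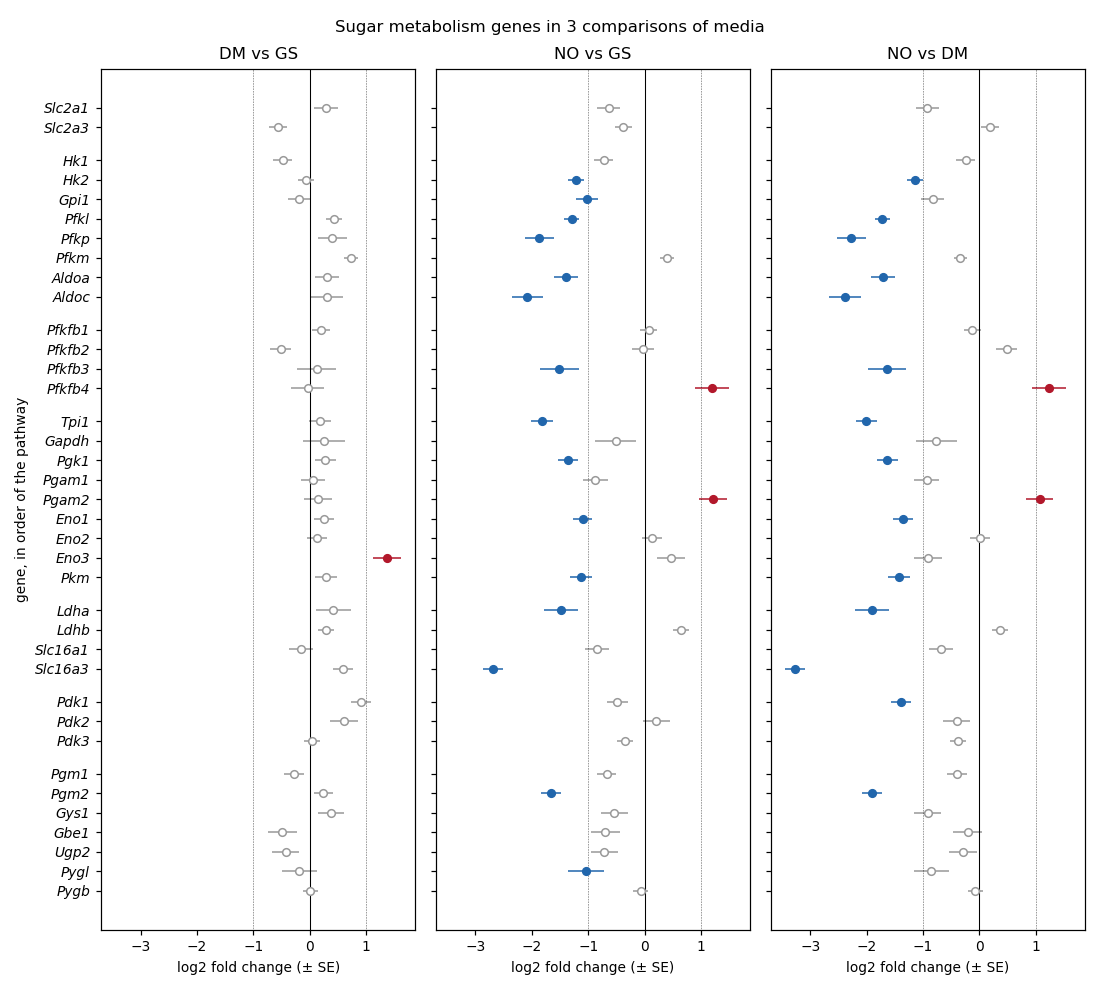
Log2 fold change (± SE) of the 37 members in DM vs. GS, NO vs. GS and NO vs. DM, in order of the pathway from uptake (top) to glycogen (bottom). Filled red points were called higher and filled blue points lower (adjusted p-value under 0.05 and at least 2-fold), open points were not called, and dotted lines mark a 2-fold change. Points lie to the left of 0 for 31 of 37 members in NO vs. DM and for 11 of 37 in DM vs. GS. Of all 18156 genes tested, 9056 were below 0 in NO vs. DM and 9098 in DM vs. GS.

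At the entry of the pathway, neither glucose transporter was called in any comparison. *Slc2a1*, the widely expressed GLUT1, had 8178, 7654 and 7156 normalised counts in the GS libraries, 8546, 8574 and 11129 in those of DM, and 3502, 6593 and 5175 in those of NO. All NO values lay below all others, but the difference of −0.92 ± 0.21 (SE) from DM on the log2 scale was under 2-fold (adjusted p = 0.0162). *Slc2a3*, the high-affinity GLUT3, had 55533, 46306 and 48500 (GS), 33665, 31649 and 36073 (DM) and 35125, 40973 and 39582 (NO), so that GS lay above the other media, and DM and NO overlapped. Per kb of exon, *Slc2a1* made up 24.1% of the *Slc2a1* and *Slc2a3* signal in GS, 36.4% in DM and 21.1% in NO, with no overlap between DM and either of the other media.

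Hexokinase, which phosphorylates glucose and so traps it in the cell, came almost wholly from *Hk2*, the inducible form bound to mitochondria. *Hk2* had 16261, 15314 and 13517 normalised counts in the GS libraries, 13691, 13450 and 15806 in those of DM, and 7305, 5777 and 6372 in those of NO. It was 2.21-fold lower in NO vs. DM (log2 fold change −1.15 ± 0.14, adjusted p = 0.00195) and 2.32-fold lower in NO vs. GS (−1.22 ± 0.14, adjusted p = 0.000624), while GS and DM overlapped. *Hk1*, the housekeeping form, had 2113, 1599 and 1394 (GS), 1075, 1332 and 1205 (DM) and 1030, 1098 and 921 (NO), and NO overlapped DM, with a difference of −0.24 ± 0.17 (adjusted p = 0.344). *Hk2* still held 90.03% of the signal of *Hk1* and *Hk2* per kb in NO, against 94.4% in DM and 92.7% in GS. *Gpi1*, glucose-6-phosphate isomerase, had 12400, 9699 and 9580 normalised counts in the GS libraries, 7790, 7928 and 12536 in those of DM, and 5006, 4595 and 6005 in those of NO. It passed at 2.03-fold lower in NO vs. GS (−1.02 ± 0.20, adjusted p = 0.00518) and was under 2-fold in NO vs. DM (−0.83 ± 0.20, adjusted p = 0.0207). The NO vs. GS call sat at the fold threshold and was lost on fold alone in 5 alternatives, for instance at −0.93 without NO replicate 2.

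Phosphofructokinase, the committed step, is built from the liver (*Pfkl*), platelet (*Pfkp*) and muscle (*Pfkm*) subunits, and the 3 genes did not move alike. *Pfkl* had 7963, 7849 and 7177 normalised counts in the GS libraries, 10271, 8811 and 12079 in those of DM, and 3086, 3158 and 3126 in those of NO. The 3 NO values were nearly equal and far below the rest, 3.30-fold lower than in DM (−1.72 ± 0.14, adjusted p = 0.000165) and 2.45-fold lower than in GS (−1.29 ± 0.14, adjusted p = 0.000438). *Pfkp* had 11302, 9129 and 9628 (GS), 12443, 12631 and 14645 (DM) and 4315, 1711 and 2778 (NO), the lowest value being that of NO replicate 2. It was 4.82-fold lower in NO vs. DM (−2.27 ± 0.26, adjusted p = 0.00158) and 3.64-fold lower in NO vs. GS (−1.87 ± 0.26, adjusted p = 0.00111). *Pfkm* had 1383, 1493 and 1478 (GS), 2591, 2185 and 2500 (DM) and 1996, 1794 and 1966 (NO). The 3 media did not overlap for *Pfkm*: DM was higher than GS by 0.74 ± 0.12 (adjusted p = 0.0039), NO was also higher than GS by 0.40 ± 0.12 (adjusted p = 0.038), and neither difference reached 2-fold. Per kb of exon, *Pfkm* thus went from 18.7% ± 1.6 of the phosphofructokinase signal in GS and 22.3% ± 1.7 in DM to 45.7% ± 2.1 in NO (SD, n = 3), whereas *Pfkp* went from 30.3% in DM to 17.0% in NO and *Pfkl* from 47.4% to 37.4%. These shares depend on merged exon lengths over all annotated transcripts, 13401 bases for *Pfkp*, 6675 for *Pfkl* and 3340 for *Pfkm*. By normalised counts without that division, *Pfkm* had the lowest mean in NO, 1919 against 3123 (*Pfkl*) and 2935 (*Pfkp*). Exons of *Pfkm* overlap *Senp1* and *Gm26513* over 10.7% of their length, and the use of strand in counting was not stated.

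The bifunctional PFKFB enzymes make and break fructose 2,6-bisphosphate, the strongest activator of phosphofructokinase, and 2 of the 4 genes were called in opposite directions. *Pfkfb3*, the form with the highest kinase to phosphatase activity, had 517, 589 and 464 normalised counts in the GS libraries, 509, 547 and 660 in those of DM, and 101, 355 and 167 in those of NO. It was 3.12-fold lower in NO vs. DM (−1.64 ± 0.35, adjusted p = 0.0121) and 2.86-fold lower in NO vs. GS (−1.51 ± 0.35, adjusted p = 0.0108). *Pfkfb4*, first described in testis, had 124, 169 and 139 (GS), 147, 138 and 133 (DM) and 220, 572 and 284 (NO). All NO values were above all others, 2.36-fold over DM (1.24 ± 0.30, adjusted p = 0.0202) and 2.30-fold over GS (1.20 ± 0.30, adjusted p = 0.0156), and the highest came from NO replicate 2. Without that replicate the fold change of *Pfkfb4* was 0.84 in NO vs. DM (adjusted p = 0.0297) and 0.80 in NO vs. GS (adjusted p = 0.0226), both under the fold threshold. Leaving out any DM replicate ended the NO vs. DM call of *Pfkfb4* at an adjusted p of up to 0.06055, as did the use of only the 6 samples compared (adjusted p = 0.0569) and a fit with no mean-variance trend (adjusted p = 0.0536). Its NO vs. GS call was also lost without GS replicate 1 (adjusted p = 0.0606) and without GS replicate 3 (adjusted p = 0.057). *Pfkfb1*, the liver and muscle form, stayed between 258 and 343 in all 9 libraries. *Pfkfb2*, the heart form, had 706, 659 and 726 (GS), 517, 505 and 443 (DM) and 571, 943 and 592 (NO), DM being the lowest medium, and 19.5% of its exon length is shared with *Yod1* and *Gm29427*. Per kb of exon, *Pfkfb3* went from 29.7% ± 3.5 of the PFKFB signal in DM to 9.40% ± 3.2 in NO, and *Pfkfb4* went from 11.2% ± 0.8 to 25.8% ± 5.2, with no overlap between the media for either.

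Both aldolases, which cleave fructose 1,6-bisphosphate, were lower in NO. *Aldoa*, the muscle and ubiquitous form, had 39501, 36593 and 36066 normalised counts in the GS libraries, 50252, 39711 and 49873 in those of DM, and 18744, 10102 and 15067 in those of NO. The NO values were 3.27-fold below DM (−1.71 ± 0.21, adjusted p = 0.00195) and 2.63-fold below GS (−1.397 ± 0.21, adjusted p = 0.00153). *Aldoc*, the brain form, had 1092, 752 and 894 (GS), 997, 957 and 1455 (DM) and 291, 132 and 250 (NO), a fall of 5.23-fold in NO vs. DM (−2.39 ± 0.28, adjusted p = 0.00161) and 4.23-fold in NO vs. GS (−2.08 ± 0.28, adjusted p = 0.000944). The balance of the pair moved as well: the log2 ratio of *Aldoc* to *Aldoa* was −5.38 ± 0.28 in DM and −6.05 ± 0.17 in NO, without overlap.

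**Figure D2:**
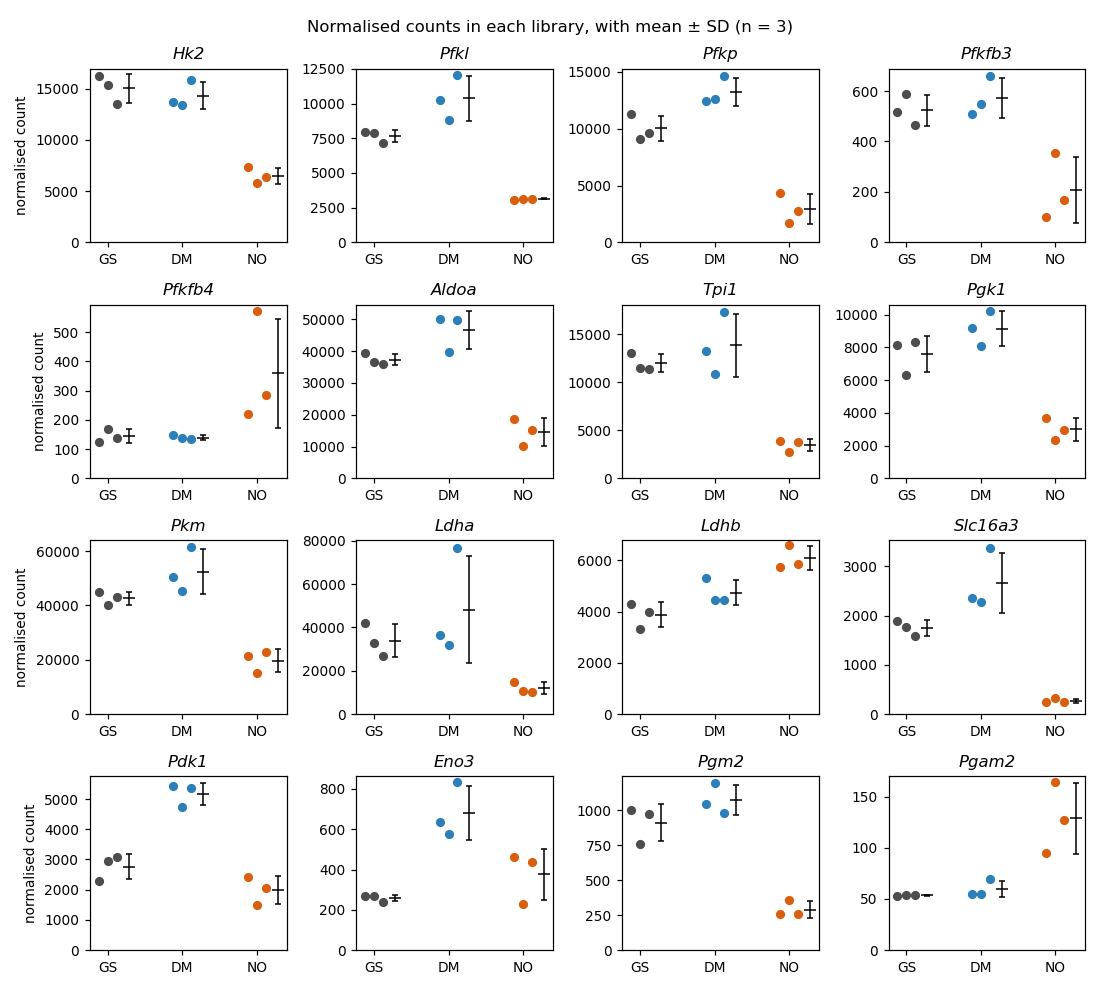
Normalised counts of 16 members in each of the 9 libraries, grouped by medium (GS grey, DM blue, NO orange), with the mean ± SD (n = 3) to the right of each group and all axes starting at 0. The NO points lie below all GS and DM points for *Hk2*, *Pfkl*, *Pfkp*, *Pfkfb3*, *Aldoa*, *Tpi1*, *Pgk1*, *Pkm*, *Ldha*, *Slc16a3* and *Pgm2*, above them for *Pfkfb4*, *Ldhb* and *Pgam2*, and for *Pdk1* and *Eno3* DM is the highest medium.

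In the lower steps, from *Tpi1* to *Pkm*, 4 of 9 members were lower and 1 higher in NO vs. DM. Of all genes, 1.77% were lower and 6.78% higher. *Tpi1*, triose-phosphate isomerase, had 13086, 11495 and 11406 normalised counts in the GS libraries, 13267, 10865 and 17347 in those of DM, and 3848, 2693 and 3741 in those of NO. It had the largest fold of the 9 in NO vs. DM, 4.01-fold lower in NO vs. DM (−2.003 ± 0.19, adjusted p = 0.000554) and 3.54-fold lower in NO vs. GS (−1.82 ± 0.19, adjusted p = 0.000425). *Pgk1*, phosphoglycerate kinase, had 8148, 6305 and 8327 (GS), 9179, 8070 and 10221 (DM) and 3683, 2336 and 2932 (NO), and was 3.11-fold lower in NO vs. DM (−1.64 ± 0.18, adjusted p = 0.00138) and 2.57-fold lower in NO vs. GS (−1.36 ± 0.18, adjusted p = 0.000971). *Gapdh*, between them in the pathway and often used as a reference gene, was not called in any comparison. Its values, 64189, 58977 and 48501 in GS, 77552, 40590 and 98129 in DM, and 60170, 22918 and 45744 in NO, differed by more than 2-fold among replicates of DM and of NO, and the media overlapped throughout. NO differed from DM by −0.76 ± 0.37 (adjusted p = 0.181), a standard error larger than that of any other member.

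*Pgam1*, the widely expressed phosphoglycerate mutase, had 4917, 4868 and 5938 normalised counts in the GS libraries, 6352, 5029 and 5059 in those of DM, and 4140, 2092 and 2654 in those of NO. All NO values were below all others, by less than 2-fold (NO vs. DM −0.94 ± 0.22, adjusted p = 0.0186, and NO vs. GS −0.88 ± 0.22, adjusted p = 0.0165). *Pgam2*, its muscle counterpart, had 53, 54 and 54 normalised counts in the GS libraries, 55, 55 and 69 in those of DM, and 95, 164 and 127 in those of NO. It was 2.10-fold higher in NO vs. DM (1.07 ± 0.25, adjusted p = 0.0175) and 2.31-fold higher in NO vs. GS (1.21 ± 0.25, adjusted p = 0.0063). Its share of the mutase signal per kb went from 2.54% ± 0.56 in DM to 10.3% ± 5.2 in NO, and the NO vs. DM call was lost in 6 alternatives that kept the thresholds, for instance at 0.88 (adjusted p = 0.0518) without NO replicate 2. Under quantile normalisation both calls of *Pgam2* fell below the fold threshold, at 0.81 in NO vs. DM and 0.83 in NO vs. GS.

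The 3 enolases behaved differently from each other. *Eno1*, the ubiquitous form, with at least 90.8% of the enolase signal per kb in each medium on average, had 31298, 31853 and 38165 normalised counts in the GS libraries, 47884, 40585 and 33349 in those of DM, and 17096, 15289 and 14817 in those of NO. It was 2.56-fold lower in NO vs. DM (−1.35 ± 0.17, adjusted p = 0.00195) and 2.14-fold lower in NO vs. GS (−1.10 ± 0.17, adjusted p = 0.00167). *Eno2*, the neuronal form, had 382, 306 and 370 (GS), 385, 370 and 394 (DM) and 411, 454 and 303 (NO), and the 3 media overlapped. *Eno3*, the muscle form, was the single member called in DM vs. GS, with 269, 268 and 241 in GS, 637, 576 and 832 in DM, and 460, 230 and 438 in NO. The rise in DM was 2.59-fold (1.38 ± 0.25, adjusted p = 0.00623), and NO was lower than DM by −0.90 ± 0.25 (adjusted p = 0.0333), under 2-fold, and overlapped GS. *Pkm*, pyruvate kinase of muscle type, had 44926, 40174 and 42920 (GS), 50496, 45352 and 61554 (DM) and 21405, 15009 and 22794 (NO). It was 2.68-fold lower in NO vs. DM (−1.42 ± 0.19, adjusted p = 0.00232) and 2.20-fold lower in NO vs. GS (−1.13 ± 0.19, adjusted p = 0.00257). The NO vs. GS calls of *Eno1* and *Pkm* were lost on fold alone with quantile normalisation, at −0.87 and −0.88, that of *Pkm* also without NO replicate 2, at −0.95, and that of *Eno1* also with equal totals, at −0.99.

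Several of these genes share sequence with other annotated genes, pseudogenes among them. Of the 50-base words in their transcripts, 53.9% for *Pgk1*, 36.2% for *Pgam1*, 26.0% for *Eno1*, 25.8% for *Pkm*, 25.1% for *Gapdh* and 21.0% for *Ldhb* also occur in transcripts of other annotated genes. The authors left out reads that mapped to several places, so the levels of these members are uncertain, which bears less on differences between media within a gene. Exons of *Pkm* overlap *Gm49759* over 15.3% of their length, which may be part of its 25.8%. Those of *Gpi1* overlap *Gm26762* over 11.5%.

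At the lactate end, *Ldha* and *Slc16a3* fell while their partners did not pass the test in NO vs. DM. *Ldha*, the muscle-type lactate dehydrogenase that favours the making of lactate, had 41923, 32655 and 26785 normalised counts in the GS libraries, 36275, 31699 and 76705 in those of DM, and 15044, 10769 and 10321 in those of NO. All NO values were below all others, 3.75-fold below DM (−1.91 ± 0.31, adjusted p = 0.00415) and 2.80-fold below GS (−1.48 ± 0.31, adjusted p = 0.0067), and DM replicate 3 was more than 2-fold above the other DM replicates. *Ldhb*, the heart-type subunit, had 4306, 3337 and 3982 (GS), 5303, 4442 and 4466 (DM) and 5748, 6604 and 5859 (NO). For *Ldhb* the order was GS, DM, NO from low to high without overlap, with differences under 2-fold: 0.65 ± 0.14 in NO vs. GS (adjusted p = 0.00831) and 0.36 ± 0.14 in NO vs. DM (adjusted p = 0.106). The log2 ratio of *Ldhb* to *Ldha* was −3.11 ± 0.31 (GS), −3.24 ± 0.75 (DM) and −0.97 ± 0.37 (NO). Per kb of exon this placed *Ldhb* at 17.8%, 17.7% and 23.9% of the lactate dehydrogenase signal in the GS libraries, at 23.6%, 22.8% and 10.9% in DM, and at 44.6%, 56.4% and 54.5% in NO, a mean of 51.8% ± 6.3 in NO. The merged exons measure 3310 bases for *Ldha* and 1570 for *Ldhb*. By normalised counts without that division, *Ldha* stayed above *Ldhb* in NO, at means of 12040 and 6070.

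*Slc16a3* encodes MCT4, the low-affinity transporter of cells that export much lactate, and showed the strongest difference of all members. It had 1898, 1775 and 1577 normalised counts in the GS libraries, 2348, 2285 and 3367 in those of DM, and 251, 319 and 245 in those of NO. It was 9.70-fold lower in NO vs. DM (−3.28 ± 0.18, adjusted p = 4.6e-06) and 6.45-fold lower in NO vs. GS (−2.69 ± 0.18, adjusted p = 1.95e-05), and both calls held under every alternative, a minimum log2 fold change of 2 included. *Slc16a1*, encoding the widely expressed MCT1, had 3875, 3749 and 4538 (GS), 4168, 3449 and 3286 (DM) and 3044, 1578 and 2393 (NO). All NO values of *Slc16a1* were below all others, by less than 2-fold (NO vs. DM −0.68 ± 0.21, adjusted p = 0.0515). The share of *Slc16a3* in the signal of both transporters per kb was 26.6% ± 3.6 (GS), 37.8% ± 7.3 (DM) and 9.56% ± 4.3 (NO), without overlap between any media.

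**Figure D3:**
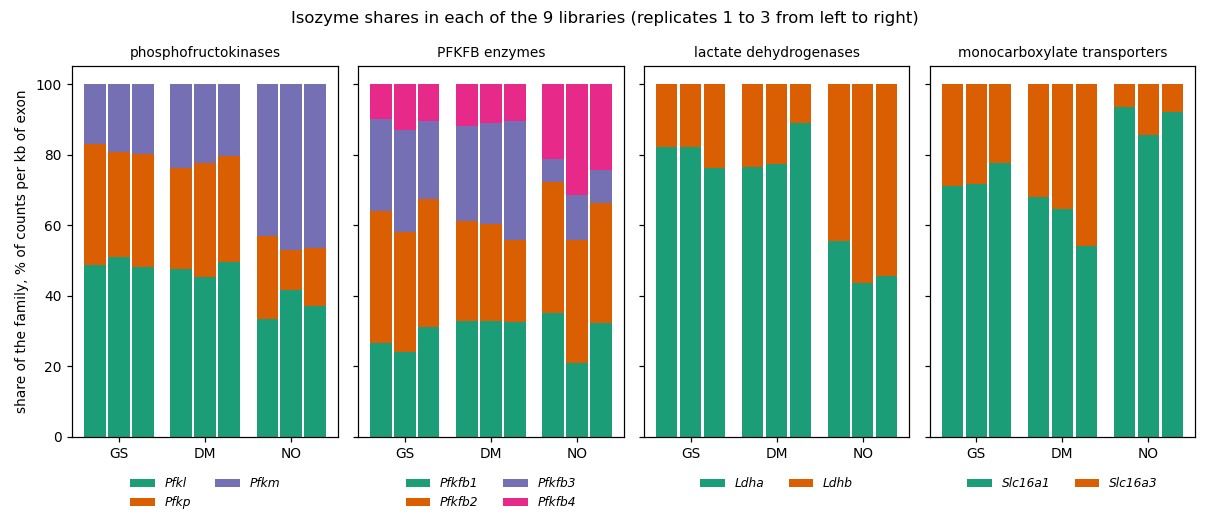
Share of each gene in the summed normalised counts per kb of exon of its family, in %, for each of the 9 libraries (replicates 1 to 3 from left to right in GS, DM and NO). *Pfkm*, *Pfkfb4*, *Ldhb* and *Slc16a1* take larger shares in all 3 NO libraries than in any GS or DM library, and *Pfkl*, *Pfkp*, *Pfkfb3*, *Ldha* and *Slc16a3* take smaller ones.

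Among the pyruvate dehydrogenase kinases, *Pdk1* changed between DM and NO. It had 2279, 2946 and 3076 normalised counts in the GS libraries, 5424, 4739 and 5350 in those of DM, and 2428, 1509 and 2072 in those of NO. DM was the high medium, 1.88-fold over GS (0.91 ± 0.18, adjusted p = 0.0112, under the fold threshold), and NO was 2.63-fold below DM (−1.39 ± 0.18, adjusted p = 0.00209) and overlapped GS (−0.48 ± 0.18, adjusted p = 0.0833). *Pdk2* ranged from 91 to 204 over all libraries, and *Pdk3* had 832, 760 and 877 (GS), 873, 830 and 825 (DM) and 758, 567 and 621 (NO). Neither passed in any comparison. The log2 ratio of *Pdk1* to *Pdk3* was 1.74 ± 0.26 (GS), 2.61 ± 0.09 (DM) and 1.61 ± 0.17 (NO).

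In the glycogen branch, 1 of 7 members was lower in NO vs. DM and 2 in NO vs. GS. Of all genes, 1.77% and 1.64% were lower in these comparisons. Phosphoglucomutase joins glycolysis with glycogen through glucose 1-phosphate, and how far each of the 2 listed genes serves that step was not measured. The names of the 2 genes are swapped in current annotation. The gene listed as *Pgm2* (ENSMUSG00000025791, chromosome 4) is now called *Pgm1*, the counterpart of human PGM1. The gene listed as *Pgm1* (ENSMUSG00000029171, chromosome 5) is now *Pgm2*. The gene listed as *Pgm2* had 999, 758 and 974 normalised counts in the GS libraries, 1044, 1194 and 983 in those of DM, and 255, 357 and 256 in those of NO. It was 3.74-fold lower in NO vs. DM (−1.90 ± 0.18, adjusted p = 0.00045) and 3.15-fold lower in NO vs. GS (−1.66 ± 0.18, adjusted p = 0.000425), and 13.6% of its exon length is shared with *Itgb3bp* on the other strand. The gene listed as *Pgm1* had 1482, 1394 and 1576 (GS), 1397, 1217 and 1078 (DM) and 1146, 717 and 973 (NO), and differed by −0.40 ± 0.18 in NO vs. DM (adjusted p = 0.145). Its share of the signal of both genes per kb was 64.9% (GS), 56.3% (DM) and 78.0% (NO).

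The enzymes that build glycogen showed smaller differences. *Gys1*, the muscle-type glycogen synthase, averaged 2015 ± 223 (GS), 2648 ± 535 (DM) and 1445 ± 495 (NO), lower in NO vs. DM by less than 2-fold (−0.92 ± 0.24, adjusted p = 0.0268). *Ugp2*, which makes UDP-glucose, and *Gbe1*, the branching enzyme, were not called, with differences of −0.29 ± 0.24 and −0.21 ± 0.26 in NO vs. DM. Of the phosphorylases that release glucose 1-phosphate from glycogen, *Pygl*, the liver form, had 253, 124 and 153 normalised counts in the GS libraries, 117, 140 and 200 in those of DM, and 69, 114 and 69 in those of NO. Its 2.05-fold difference in NO vs. GS (−1.04 ± 0.31, adjusted p = 0.0369) was the least stable call among the members, lost in 11 alternatives that kept the thresholds, with the replicate number as a block among them (adjusted p = 0.0591) and at an adjusted p of 0.14 without GS replicate 1. *Pygb*, the brain form and at least 88.6% of the signal of both phosphorylases per kb in each medium on average, had 1055, 879 and 869 (GS), 906, 938 and 967 (DM) and 843, 850 and 981 (NO), and differed by −0.08 ± 0.13 in NO vs. DM (adjusted p = 0.74).

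Levels of different genes were compared per kb of merged exon, so their order depends on lengths that cover every annotated transcript. On that scale, *Gapdh*, *Aldoa*, *Ldha* and *Pkm* were the highest 4 members in GS and DM, at 13850, 12840, 10210 and 8533 normalised counts per kb in GS and 17440, 16010, 14570 and 10490 in DM. In NO the order was *Gapdh* at 10390, *Slc2a3* at 5322, *Aldoa* at 5028 and *Pkm* at 3946, followed by *Ldhb* at 3866 and *Ldha* at 3639, and the last 3 did not differ beyond their spread. The lowest members in NO were *Pygl* at 12.2 and *Gbe1* at 17.6 per kb.

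Genes of the same pathways outside the list, chosen with earlier results of these data known, went both ways. Of 13 other glycolysis isozymes and entry genes tested, 2 were higher and 1 lower in NO vs. DM, with a median log2 fold change of 0.04. Of all genes, 6.78% were higher and 1.77% lower. *Fbp2*, the muscle fructose bisphosphatase that runs the reverse of the phosphofructokinase step, had 242, 199 and 210 normalised counts in the GS libraries, 203, 186 and 281 in those of DM, and 528, 1505 and 871 in those of NO, a rise of 2.004 ± 0.31 in NO vs. DM on the log2 scale (adjusted p = 0.00369). *Fbp1*, the liver form, rose from 18, 20 and 35 in DM to 53, 181 and 90 in NO (1.99 ± 0.45, adjusted p = 0.0161). *Slc2a4*, the insulin-responsive transporter GLUT4, was higher in DM vs. GS (1.30 ± 0.26, adjusted p = 0.0118) and in NO vs. GS (2.13 ± 0.26, adjusted p = 0.000663), from 36 to 42 in GS, 87 to 109 in DM and 122 to 245 in NO. For *Fbp1*, *Fbp2* and *Slc2a4* the highest value was that of NO replicate 2.

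Of 17 other lactate and pyruvate genes, 0 were called in NO vs. DM by limma, and 1 was higher and 3 lower at an unadjusted p-value under 0.05, where 17.6% of all genes were higher and 13.7% lower. *Emb*, an ancillary protein of monocarboxylate transporters, rose in DM vs. GS by 1.26 ± 0.25 (adjusted p = 0.0105) and was lower in NO vs. DM by less than 2-fold (−0.93 ± 0.25, adjusted p = 0.03), with 226, 217 and 294 normalised counts in the GS libraries, 767, 552 and 472 in those of DM, and 435, 238 and 275 in those of NO. In NO vs. GS, *Pcx*, pyruvate carboxylase, was higher by 1.39 ± 0.20 (adjusted p = 0.00124) and *Pdp1*, a pyruvate dehydrogenase phosphatase, by 1.00 ± 0.23 (adjusted p = 0.0109), and *Pdp2*, the other phosphatase, was lower by −1.05 ± 0.14 (adjusted p = 0.000968). In NO vs. DM, where 6.78% of all genes were higher and 1.77% lower, 3 of 23 other glycogen genes were higher and 0 lower. These were *Gaa*, the lysosomal glucosidase that digests glycogen (1.24 ± 0.20, adjusted p = 0.00439), *Gyg*, glycogenin, the primer of glycogen (1.403 ± 0.25, adjusted p = 0.00682), and *Pygm*, the muscle phosphorylase (1.36 ± 0.38, adjusted p = 0.0339). *Pygm* had 99, 96 and 149 normalised counts in DM and 154, 530 and 301 in NO, and all NO values were above all DM values. The same 3 genes were higher in NO vs. GS, and *Ppp1r3b*, a glycogen-targeting phosphatase subunit, was lower there (−1.29 ± 0.34, adjusted p = 0.0221). For *Gaa*, *Gyg*, *Pygm*, *Pcx* and *Pdp1* the highest value was that of NO replicate 2, and the *Pdp1* call sat at the fold threshold.

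Of 10 pentose phosphate genes, 0 were called in NO vs. DM by limma (median −0.19), with 3 higher and 1 lower at an unadjusted p-value under 0.05 (17.6% and 13.7% of all genes), and *Prps2*, a phosphoribosyl pyrophosphate synthetase, was higher in NO vs. GS (1.13 ± 0.18, adjusted p = 0.00198). The highest *Prps2* value was that of NO replicate 2. Of 20 tricarboxylic acid (TCA) cycle genes, 0 were called in any comparison by limma, with medians of −0.22 in NO vs. DM, −0.29 in NO vs. GS and −0.05 in DM vs. GS. At an unadjusted p-value under 0.05, 4 of them were lower and 0 higher in NO vs. DM (13.7% and 17.6% of all genes), 6 lower and 0 higher in NO vs. GS (14.6% and 20.1%), and 1 lower and 0 higher in DM vs. GS (8.65% and 11.2%). Of 20 genes of the response to hypoxia outside sugar metabolism, 6 were lower and 0 higher in NO vs. DM. In NO vs. GS, 8 were lower and 0 higher. Of all genes, 1.77% were lower and 6.78% higher in NO vs. DM, and 1.64% and 10.1% in NO vs. GS. This list too was chosen with earlier results of these data known, so nothing is read from its counts. *Bnip3*, a receptor of mitophagy, had 1348, 886 and 1353 normalised counts in the GS libraries, 1794, 1688 and 1809 in those of DM, and 88, 104 and 85 in those of NO, a fall of −4.25 ± 0.18 in NO vs. DM (adjusted p = 5.69e-07). *Egln3*, an oxygen sensor that marks HIF for breakdown, had 321, 212 and 234 (GS), 630, 529 and 649 (DM) and 64, 95 and 71 (NO), higher in DM vs. GS (1.25 ± 0.21, adjusted p = 0.0044) and lower in NO vs. DM (−2.97 ± 0.21, adjusted p = 5.57e-05). Over all 6 lists, 5 genes were higher and 7 lower in NO vs. DM, and 4 were higher and 8 lower without NO replicate 2. In NO vs. GS, 9 were higher and 10 lower, and 5 were higher and 12 lower without NO replicate 2.

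**Figure D4:**
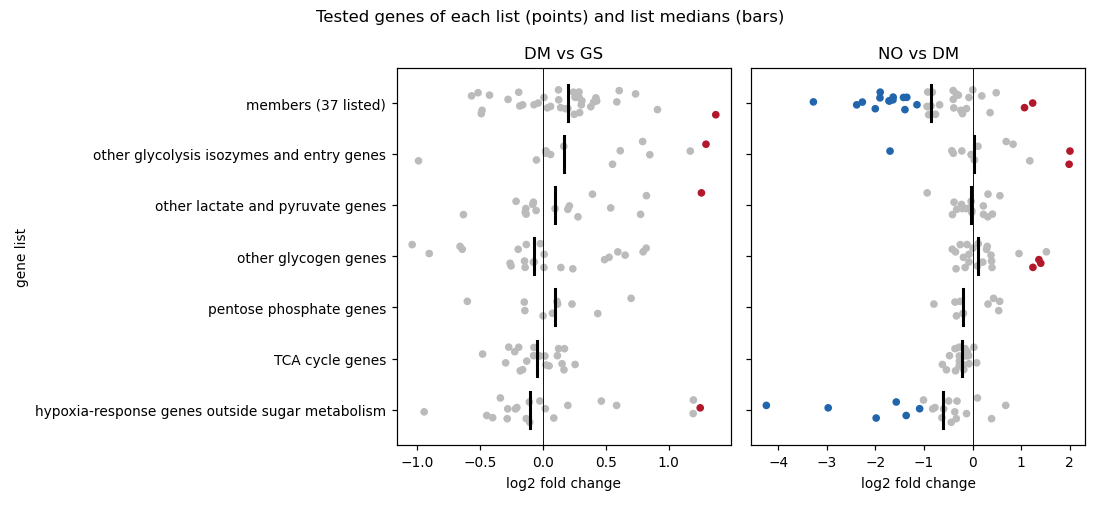
Log2 fold changes of the tested genes of each list in DM vs. GS and NO vs. DM (points, with the vertical position inside a list without meaning) and the median of each list (black bars). Red points were called higher and blue points lower; in NO vs. DM the medians are −0.86 for the 37 members and −0.61 for the hypoxia-response genes, and those of the other lists lie between −0.22 and 0.12.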

How the data were processed

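Total RNA of mESC in GS, DM and NO was analysed, with 3 replicates per medium. Medium and replicate number were taken from the labels. The authors removed ribosomal RNA before sequencing (Ion Torrent Proton), trimmed with Reaper, aligned to GRCm38 with STAR 2.4.0a and counted over exons with featureCounts 1.4.5-p1, leaving out reads of several genes or positions. Use of strand was not stated. The deposited table gives each gene a score, namely its DESeq2-normalised count which the authors rounded, so no count model was fitted. A column of sums over samples was not used. Depth was estimated from gaps among low values.

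Values were analysed as log2(value + 1) with limma 3.58.1 in R 4.3.3, for 18156 genes with a mean above 5 and all 9 samples in one fit, with moderation on a mean-variance trend and two-sided tests. Replicates of a medium differed by 24.64 to 138.1 times their sampling variance, so none was a duplicate. The members and lists were chosen with earlier results of these data known. Values in every library are given for members past both thresholds and for the partner isozymes whose ratio to them was taken, and from each other list at most 4 genes a comparison by smallest adjusted p-value. A single gene of these other lists is not reported here by name, although the counts and medians of its list include it. Shares of a family use normalised counts per kb of merged exon (GENCODE M21), and their size depends on those annotated lengths. Deviations of same-numbered DM and NO samples correlated at 0.1585, 0.1674 and 0.2959, and those of DM and GS samples at −0.1783, 0.0216 and −0.2321. For NO and GS samples the correlations lay between −0.1057 and 0.0503. The labels name no pairing and values for differently numbered samples are not given, so no pairing is inferred. Alternatives comprised other filters, pseudocounts, scalings, fits, fold thresholds and the omission of each replicate.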

Additional observations from a re-analysis of the deposited data

How the results depend on the processing

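Among the members there were 34 calls, of which 26 passed under every alternative except a minimum log2 fold change of 2, and none of 730 recomputed values changed direction. Those lost belonged to *Pygl*, *Gpi1*, *Eno1* and *Pkm* in NO vs. GS and to *Pfkfb4* and *Pgam2* in both NO comparisons, with values or the number of such alternatives beside each gene. With the replicate number as a block, 1, 16 and 16 members passed in DM vs. GS, NO vs. GS and NO vs. DM, and the loss of *Pygl* in NO vs. GS was the single changed call. Leaving out each replicate in turn gave 1 to 1, 14 to 17 and 14 to 19 members. Fits with no minimum fold change passed 3 members in DM vs. GS, all higher, where 794 of all 18156 genes were higher and 421 lower. A minimum log2 fold change of 2 passed 0, 2 and 4 members. The share of all genes under the other alternatives is not given, so nothing is read from the counts of members or other lists. For the other lists, with 3, 19 and 12 genes called, the counts were 8, 30 and 19 with no minimum fold change, 0, 4 and 3 with a minimum of 2, and 5 in DM vs. GS with only the 6 samples compared. They ranged from 1 (without GS replicate 2) to 5 (without NO replicate 2) in DM vs. GS, from 16 to 20 (NO vs. GS) and from 9 to 17 (NO vs. DM) when a replicate was left out.

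Quantile normalisation moved the median of all genes by −0.14 in NO vs. DM and −0.20 in NO vs. GS, and equal totals moved the NO vs. GS median by 0.11. The share of higher genes among all calls went from 79.3% to 65.1% in NO vs. DM and from 86.0% to 67.5% in NO vs. GS with quantile normalisation, while the median of the members was −0.78 and −0.72. The precision was set by 3 replicates per medium and, for members under 200 normalised counts, by depth as well.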
